A study of Mus musculus with 8 samples.

Results

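The 10 genes described here carry glucose into the cell and convert it to lactate. They are the glucose transporter gene Slc2a1 and the enzyme genes Hk1, Hk2, Pfkp, Aldoa, Gapdh, Pgk1, Eno1, Pkm and Ldha. They were picked by symbol as a pathway, with earlier results of these data known but no value in the rule, and all 10 are among the 24537 genes of the count table. All 10 also passed the filter on low counts, which left 14711 genes for testing. RNA was sequenced from EpCAM+ cells that were isolated by flow cytometry from pancreatic tumours of FVB/NJ mice. All mice of both arms had the same genotype, which included the luciferase allele Rosa26LSL-Luc and Pdx1-Cre. Treatment began at 42 to 43 days of age. In both arms the mice received gemcitabine, a nucleoside analogue that blocks DNA synthesis, at 50 mg/kg on days 1 and 4. They were also given an antibody at 25 mg/kg on days 1, 3 and 5, and the tumours were taken on day 6, at around 48 days of age. In the IgG arm the antibody was control IgG (n = 4), and in the anti-LIF arm it neutralised the cytokine leukaemia inhibitory factor, LIF (n = 4). Each library came from the tumour of 1 mouse. Pdx1-Cre is active in pancreatic progenitors, so the alleles it recombines can be active in any pancreatic epithelial lineage. Neither arm was without gemcitabine, so each value below is a difference between antibodies in mice given that drug.

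Glycolysis begins when glucose enters through facilitative transporters such as GLUT1 (Slc2a1) and is trapped by hexokinase as glucose 6-phosphate. Phosphofructokinase commits the sugar to the pathway, aldolase splits it, and the enzymes from Gapdh to Pkm harvest ATP and yield pyruvate, which lactate dehydrogenase reduces to lactate. Many tumours, pancreatic ductal cancer among them, are known for high glucose uptake and lactate release, and hypoxia-inducible factors and Myc act on many of these genes.

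The libraries held 15135457 to 18972281 counts in genes. Epcam was present in every library but was lower with anti-LIF, at 575 ± 76.8 CPM (counts relative to the TMM-scaled library size) with IgG and 305 ± 74.8 with anti-LIF (mean ± SD, n = 4; edgeR adjusted p = 0.0102). The 20 epithelial markers together took 0.631% to 0.767% of counts in the IgG arm and 0.198% to 0.391% in the anti-LIF arm, and none of them was at 0 in a whole arm. The 19 myeloid markers in the table took 1.41% to 1.87% and 2.83% to 4.71%, and the 18 acinar markers 0.0383% to 0.227% and 0.322% to 1.80%, with 1 acinar marker at 0 in all libraries. Transcripts of myeloid and acinar marker genes were thus present in the cells sorted for EpCAM, and none of these 3 shares overlapped between the arms. Lymphoid markers (0.00108% to 0.00360% and 0.00454% to 0.00727%) and endothelial markers (0.00460% to 0.00955% and 0.0113% to 0.0132%) did not overlap either, while neutrophil, fibroblast and erythroid markers did. Of the 12 endothelial markers, however, 9 had log2 estimates below 0 and 3 above it (median −0.18). Their higher summed share with anti-LIF therefore does not describe most of that list. In such bulk samples, fewer cells of a type and less RNA per cell cannot be told apart. The part of these shares in the values below was not tested.

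With TMM scaling, no difference between the antibodies was detected in any of the 10 genes. With edgeR's quasi-likelihood test and an adjusted p below 0.05 over all tested genes, 0 of the 10 were called, against 32.2% of all tested genes. At an unadjusted p below 0.05 the count was 0 of 10 in edgeR, in DESeq2 and in limma-voom, where 44.8% of tested genes passed in edgeR. For none of the 10 did the CPM ranges of the arms separate, whereas they did for 35.7% of tested genes. The estimates ran from −0.52 to 0.20 on the log2 scale (anti-LIF minus IgG), with 6 above and 4 below 0 and a median of 0.057, beside −0.0063 over all tested genes. The median absolute estimate was 0.17 for the 10 genes and 0.33 over all tested genes, and the median standard errors (SE) were 0.18 and 0.16. The intervals given below show which differences remain possible at this sample size.

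These directions hold relative to the bulk of tested genes. Scaled to the epithelial markers, which moves the median of all genes by 1.01, 9 of the 10 genes passed as higher with anti-LIF. Scaled to the myeloid markers, which moves it by −1.13, all 10 passed as lower. With those scalings 98.4% and 1.51% of all calls were in the higher direction, against 48.7% with TMM and 28.6% with library size alone. The summed counts of the 10 genes were 0.216%, 0.232%, 0.241% and 0.330% of counts in genes in the IgG tumours and 0.183%, 0.287%, 0.209% and 0.217% in the anti-LIF tumours. These shares overlapped, with means of 0.255% ± 0.0512 and 0.224% ± 0.0445 (SD, n = 4).

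**Figure D1:**
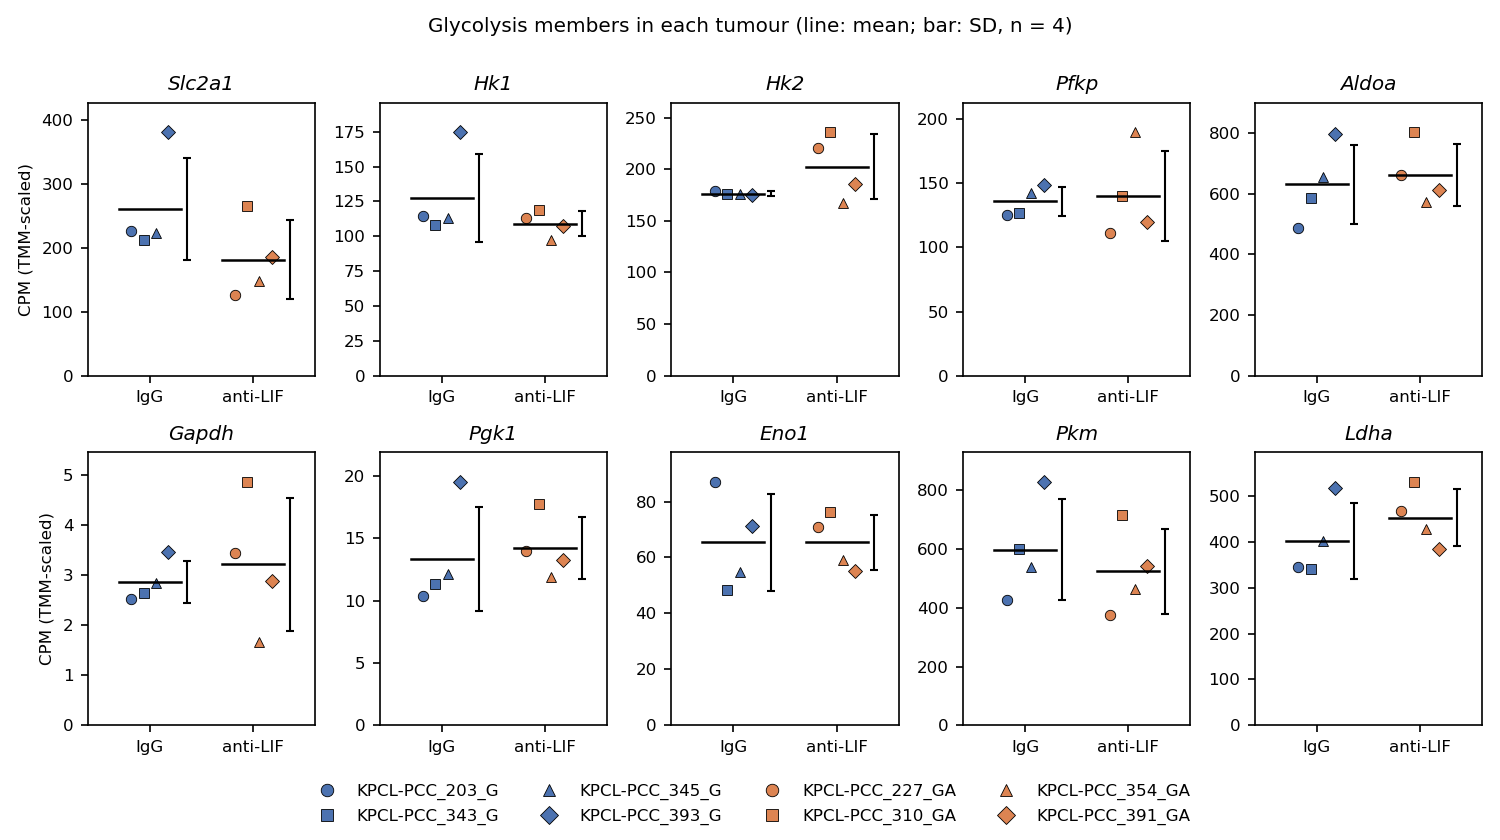
TMM-scaled CPM (y axis, from 0) of each of the 10 glycolysis genes in the 4 IgG tumours (blue) and the 4 anti-LIF tumours (orange), 1 point per tumour, with the arm's mean as a line and its SD as a bar. The arms overlap in every panel; the IgG tumour KPCL-PCC_393_G (blue diamond) is the highest of its arm in 8 panels and the anti-LIF tumour KPCL-PCC_310_GA (orange square) in 9.

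In what follows, IgG values are given in the order KPCL-PCC_203_G, then KPCL-PCC_343_G, then KPCL-PCC_345_G, then KPCL-PCC_393_G. Anti-LIF values are in the order KPCL-PCC_227_GA, then KPCL-PCC_310_GA, then KPCL-PCC_354_GA, then KPCL-PCC_391_GA.

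Glucose uptake was represented by Slc2a1 (chr4:119108745-119137329, mm10), which encodes the transporter GLUT1. Its levels were 226, 213, 224 and 381 CPM with IgG and 126, 266, 148 and 186 CPM with anti-LIF. In each arm 1 tumour stood above the other 3, KPCL-PCC_393_G with IgG and KPCL-PCC_310_GA with anti-LIF. The arms overlapped only through KPCL-PCC_310_GA, as the other anti-LIF tumours lay below every IgG tumour. Slc2a1 had the largest estimate of the 10, with means of 261 ± 80.3 and 182 ± 61.3 CPM (SD, n = 4) and a log2 difference of −0.52 ± 0.27 (SE; 95% interval −1.12 to 0.08; edgeR adjusted p = 0.161). The call depended on single tumours. Without KPCL-PCC_310_GA the difference was −0.76 and passed (edgeR adjusted p = 0.048), without KPCL-PCC_393_G it was −0.28 (adjusted p = 0.398), and with both left out, a setting chosen after seeing the data, it was −0.52 (adjusted p = 0.0569). Over all alternatives the adjusted p ran from 0.000766, with myeloid scaling, to 0.398. With epithelial scaling the estimate was 0.42 (adjusted p = 0.146).

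The hexokinases trap glucose inside the cell. Hk1 (chr10:62268855-62379908) encodes the enzyme of most adult tissues, and Hk2 (chr6:82725027-82774454) the inducible isoform that many tumours express. Hk1 levels were 115, 108, 113 and 175 CPM with IgG and 113, 119, 97.7 and 107 CPM with anti-LIF. KPCL-PCC_393_G again stood apart, and the other 7 tumours lay within 97.7 to 119 CPM (difference −0.23 ± 0.16, 95% interval −0.58 to 0.13, edgeR adjusted p = 0.298). Hk2 levels were 179, 176, 176 and 175 CPM with IgG and 221, 236, 168 and 186 CPM with anti-LIF. The IgG tumours were nearly identical for Hk2, with a coefficient of variation of 1.13%, while the anti-LIF tumours varied by 15.5%. In 3 of the 4 anti-LIF tumours Hk2 lay above every IgG tumour, and in KPCL-PCC_354_GA it lay below them all (difference 0.20 ± 0.11, 95% interval −0.05 to 0.45, edgeR adjusted p = 0.201). Hk2 was the only one of the 10 genes in which KPCL-PCC_393_G was the lowest IgG tumour.

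The next steps are phosphofructokinase, whose platelet-type isoform is encoded by Pfkp (chr13:6579874-6648771), and aldolase A, encoded by Aldoa (chr7:126795234-126799178). Pfkp levels were 125, 127, 143 and 149 CPM with IgG and 111, 140, 190 and 119 CPM with anti-LIF. The widest value was in KPCL-PCC_354_GA, the only anti-LIF tumour other than KPCL-PCC_310_GA that was the highest of its arm in any of the 10 genes (difference 0.046 ± 0.16, 95% interval −0.32 to 0.41, edgeR adjusted p = 0.848). Aldoa levels were 486, 586, 654 and 798 CPM with IgG and 661, 803, 571 and 612 CPM with anti-LIF. The highest tumour of each arm was at nearly the same level (difference 0.069 ± 0.17, 95% interval −0.32 to 0.45, edgeR adjusted p = 0.783).

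Gapdh (chr6:125161852-125165773) and Pgk1 (chrX:106187100-106203699) encode the dehydrogenase that makes 1,3-bisphosphoglycerate and the kinase that takes ATP from it. Gapdh held only 27 to 73 counts per library, or 2.52, 2.64, 2.84 and 3.46 CPM with IgG and 3.45, 4.87, 1.67 and 2.89 CPM with anti-LIF. Both the highest and the lowest Gapdh values were in anti-LIF tumours (difference 0.17 ± 0.31, 95% interval −0.53 to 0.86, edgeR adjusted p = 0.705), and its interval was the widest of the 10. Pgk1 held 181 to 362 counts per library, or 10.4, 11.4, 12.1 and 19.6 CPM with IgG and 14.0, 17.8, 11.9 and 13.3 CPM with anti-LIF. Here too KPCL-PCC_393_G and KPCL-PCC_310_GA were the highest of their arms (difference 0.092 ± 0.22, 95% interval −0.41 to 0.59, edgeR adjusted p = 0.773).

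Eno1 (chr4:150237197-150248873) encodes enolase, which forms phosphoenolpyruvate. It stood at 87.2, 48.3, 55.0 and 71.4 CPM with IgG and at 71.0, 76.1, 59.1 and 55.3 CPM with anti-LIF. The anti-LIF values lay within the IgG range, and the arm means were 65.5 ± 17.4 and 65.4 ± 9.78 CPM (difference −0.0011 ± 0.19, 95% interval −0.43 to 0.43, edgeR adjusted p = 0.997). A second enolase row, Eno1b (chr4:150237324-150248873), has coordinates within those of Eno1, so reads there could be counted in either row. Eno1b was at 85.6 ± 15.6 and 90.3 ± 12.8 CPM (difference 0.077 ± 0.15, edgeR adjusted p = 0.721).

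The last enzymes of the pathway are pyruvate kinase, encoded by Pkm (chr9:59656368-59679375), and the lactate dehydrogenase A chain, encoded by Ldha (chr7:46847082-46855627). Pkm levels were 426, 601, 538 and 830 CPM with IgG and 375, 718, 463 and 541 CPM with anti-LIF. The spread within each arm was wider than the distance between the means of 599 ± 171 and 524 ± 146 CPM (SD, n = 4; difference −0.19 ± 0.24, 95% interval −0.75 to 0.36, edgeR adjusted p = 0.576). The table has 1 row for Pkm, so its alternatively spliced M1 and M2 forms were not separated. Ldha levels were 346, 342, 402 and 519 CPM with IgG and 467, 533, 429 and 385 CPM with anti-LIF. Of the anti-LIF tumours, 3 lay above 3 of the IgG tumours, and KPCL-PCC_393_G lay among the highest (difference 0.17 ± 0.16, 95% interval −0.19 to 0.54, edgeR adjusted p = 0.431).

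Levels were compared between genes per length, in the deposited FPKM (reads scaled by the length of the transcript and the total of the library). Over the 8 tumours the order was Aldoa at 347 ± 62.5 FPKM, Ldha at 210 ± 36.6, Pkm at 186 ± 56.8, Slc2a1 at 69.8 ± 27.9, Eno1 at 29.7 ± 6.92, Pfkp at 27.5 ± 5.39, Hk2 at 27.4 ± 2.97, Hk1 at 23.2 ± 5.65, Pgk1 at 6.07 ± 1.54 and Gapdh at 1.87 ± 0.579 (mean ± SD, n = 8). Not every neighbour in this order was separated. Ldha exceeded Pkm in 6 of 8 tumours, Eno1 exceeded Pfkp in 5, Pfkp exceeded Hk2 in 3 and Hk2 exceeded Hk1 in 7, while each other gene exceeded the next in all 8. The Eno1b row, with coordinates within those of Eno1, was at 41.3 ± 7.06 FPKM, so the place of Eno1 in this order is uncertain. The FPKM table uses another transcript than the count table for Aldoa, Gapdh and Ldha. Gapdh is usually counted among the most abundant transcripts of a cell, but here it was the lowest of the 10, and Pgk1 was next.

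Gapdh and Pgk1, the lowest of the 10, share most of their sequence with other genes. Each transcript was cut into all its runs of 50 bases, and each run was searched in the GENCODE M21 transcripts of every other gene. For Gapdh 82.5% of the runs occurred in another gene, 222 genes in all, of which 203 are processed pseudogenes, copies made from spliced mRNA. Eno1 shared 72.2%, with 9 other genes, and Pgk1 shared 68.0%, with 5. The shares were 34.4% for Pkm, 17.1% for Pfkp, 16.6% for Ldha, 13.5% for Aldoa and 1.74% for Slc2a1, while Hk1 and Hk2 shared none. In the coding part alone, 0 of 950 runs of Gapdh and 0 of 1202 runs of Pgk1 were unique, and 83.3% of Eno1 runs and 52.9% of Pkm runs were shared. Among the related genes searched in the same way, Pgam1 shared the most, at 41.5% of its transcript. The sources used here give neither the read length nor the handling of reads that fit several places. The part of shared sequence in the low levels was not tested. The counts of all genes with shared runs are uncertain for that reason, and Gapdh, Eno1 and Pgk1 shared the largest parts.

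The coding run of Gapdh that is shared with the most other genes (coding bases 415 to 464) occurred in 84 of them. It is shown as an example of such a run, 5′ to 3′, from GENCODE M21.
Gapdh: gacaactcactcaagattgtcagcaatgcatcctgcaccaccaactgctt

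**Figure D2:**
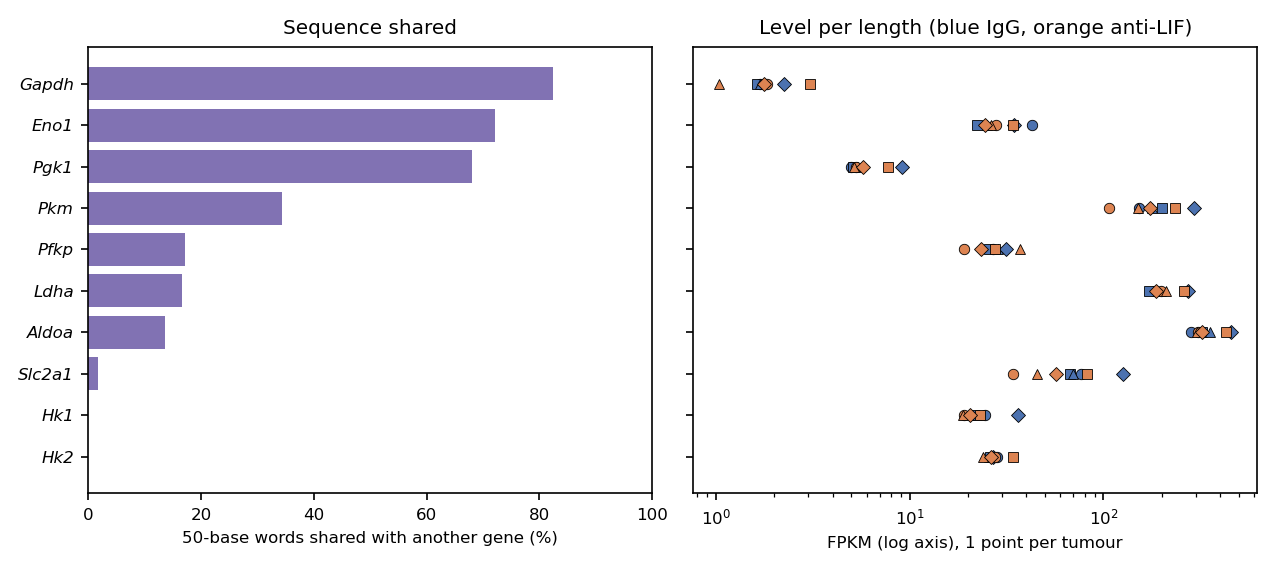
Left, the share of each transcript's 50-base runs found in a transcript of another gene (x axis, percent, bars from 0); right, FPKM of the same gene in each tumour (log x axis), blue for IgG and orange for anti-LIF, 1 point per tumour and the same symbols as in the plot of CPM by tumour. Gapdh and Pgk1 share 82.5% and 68.0% and have the lowest FPKM, while Eno1 shares 72.2% and lies beside Pfkp.

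Within each arm, 1 tumour was the highest in most of the 10 genes. KPCL-PCC_393_G was the highest IgG tumour in 8 of the 10 genes, all but Hk2 and Eno1, although it was the highest of its arm in 24.3% of all tested genes. KPCL-PCC_310_GA was the highest anti-LIF tumour in 9 of the 10, all but Pfkp, against 25.2% of all tested genes. Relative to the mean of the 8 tumours, log2 CPM in KPCL-PCC_393_G was 0.86 for Slc2a1, 0.61 for Pkm, 0.58 for Hk1 and 0.53 for Pgk1. In KPCL-PCC_310_GA it was 0.71 for Gapdh, 0.40 for Pkm and 0.39 for Pgk1. The 10 genes do not count as independent in this, since they come from the same libraries. In KPCL-PCC_393_G the epithelial, myeloid and acinar markers took 0.685%, 1.55% and 0.0913% of counts, each inside the range of the other IgG tumours. Its fibroblast and endothelial markers, at 0.0938% and 0.00955%, were the highest of the IgG arm, where the other tumours had 0.0254% to 0.0746% and 0.00460% to 0.00934%. In KPCL-PCC_310_GA they took 0.363%, 2.83% and 0.933%, and the myeloid share was the lowest of its arm. Its neutrophil, lymphoid and erythroid shares, at 0.0294%, 0.00727% and 0.000368%, were the highest of the anti-LIF arm. The part of these shares in the tumours' glycolysis values was not tested.

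**Figure D3:**
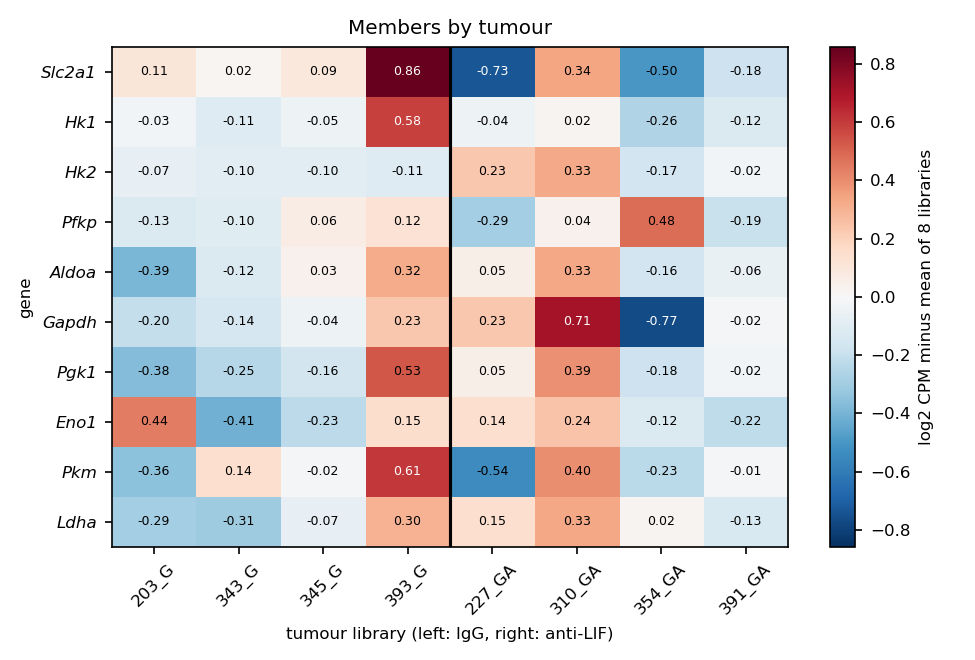
Log2 CPM of each of the 10 genes (rows) in each tumour (columns, IgG left of the line and anti-LIF right of it) minus the mean of the 8 tumours, as colour and number. The columns of KPCL-PCC_393_G and KPCL-PCC_310_GA are mostly red, with 0.86 for Slc2a1 in the former and 0.71 for Gapdh in the latter.

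Ratios between paralogs within a tumour do not depend on how libraries are scaled. The log2 ratio of Hk2 to Hk1 FPKM was 0.22, 0.28, 0.21 and −0.43 with IgG and 0.54, 0.56, 0.35 and 0.36 with anti-LIF. All 4 anti-LIF tumours lay above all 4 IgG tumours, by 0.39 on average or 1.31-fold (exact two-sided permutation p = 0.0286, adjusted over 5 ratios 0.0714). Without KPCL-PCC_393_G the difference was 0.22. The log2 ratio of Hk2 to Hk3, the hexokinase known chiefly from white blood cells, was 1.94, 2.66, 1.74 and 1.53 with IgG and 0.10, 0.88, 0.37 and 0.75 with anti-LIF. The arms again did not overlap, and the ratio was 2.72-fold lower with anti-LIF (difference −1.44, exact two-sided permutation p = 0.0286, adjusted 0.0714). With 4 against 4 tumours and 70 labellings, 0.0286 is the smallest p the test can give, and no ratio passed after adjustment.

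The other 3 ratios overlapped between the arms. Pfkp to Pfkl, the liver-type phosphofructokinase, averaged −0.19 ± 0.13 with IgG and −0.57 ± 0.58 with anti-LIF (SD, n = 4; exact two-sided permutation p = 0.257, adjusted 0.321). Slc2a1 to Slc2a3, which encodes GLUT3, averaged 5.53 ± 0.51 and 5.39 ± 0.71 (exact permutation p = 0.714, adjusted 0.714), and Slc2a1 FPKM was 28.1 to 76.5 times that of Slc2a3 over the 8 tumours. Ldha to Ldhb, the heart-type chain, averaged 4.63 ± 0.58 and 5.68 ± 0.60 (difference 1.04, exact permutation p = 0.0857, adjusted 0.143). The Ldhb transcript itself was at 12.5 ± 4.91 and 6.76 ± 1.93 CPM, and its CPM ranges did not overlap (9.12 to 19.7 and 4.02 to 8.28). The Ldhb difference of −0.88 ± 0.31 did not pass in edgeR (adjusted p = 0.0538). It did pass in DESeq2 (adjusted p = 0.022) and in edgeR without KPCL-PCC_203_G (adjusted p = 0.0499). Its call or sign changed in 7 of 21 alternatives, those included.

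**Figure D4:**
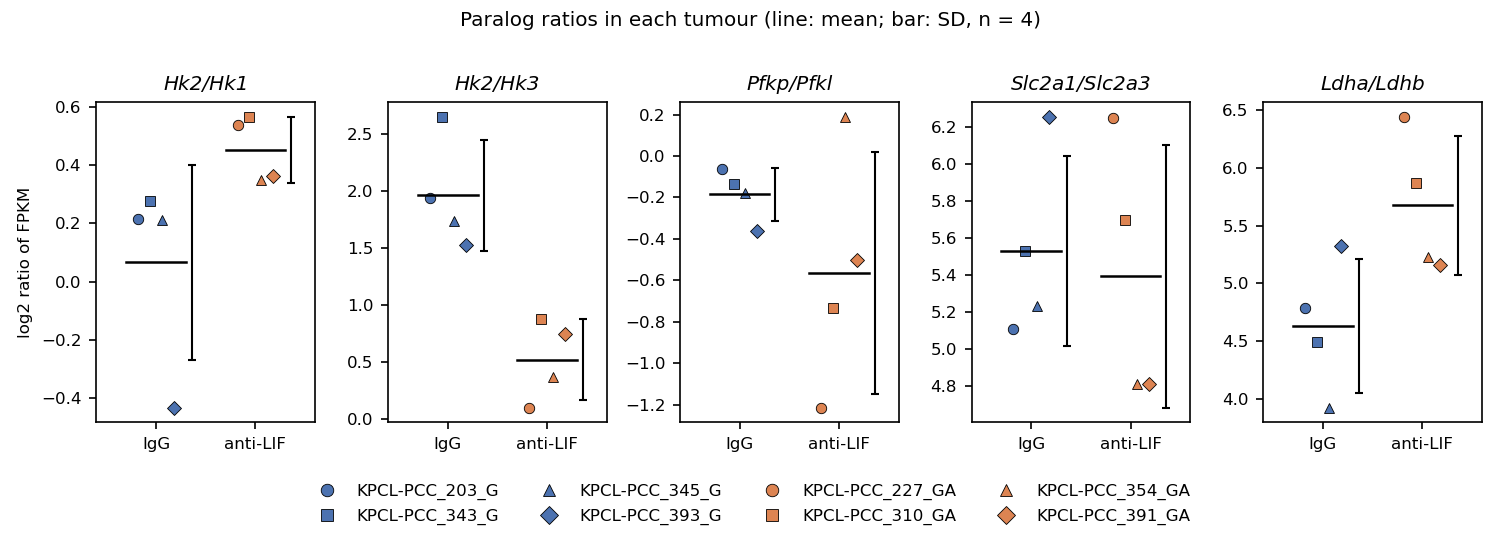
Log2 ratio of FPKM between paralogs (y axis; each panel has its own scale, which does not start at 0) in the 4 IgG tumours (blue) and 4 anti-LIF tumours (orange), 1 point per tumour, with mean (line) and SD (bar). The arms separate for Hk2/Hk1 (mean 0.07 and 0.45) and for Hk2/Hk3 (1.97 and 0.52) and overlap in the other panels.

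Among 111 other genes of glucose metabolism and its regulation, 104 were tested, of which 8 rose and 8 fell (15.7% of all tested genes rose and 16.5% fell). Their median difference was −0.098, beside −0.0063 over all tested genes. These calls moved with the libraries used: without KPCL-PCC_343_G there were 10. Of 17 other glycolytic enzymes, 1 rose and none fell. That gene, Hk3, was at 25.2, 15.2, 28.6 and 32.3 CPM with IgG and at 108, 67.9, 69.2 and 58.8 CPM with anti-LIF. Every anti-LIF tumour lay above every IgG tumour, 3.00-fold on average (1.58 ± 0.26, edgeR adjusted p = 0.00485). With myeloid scaling the Hk3 difference was 0.43 and did not pass (adjusted p = 0.078). Between the arms, the leukocyte gene Ptprc went from 281 ± 45.2 to 511 ± 47.9 CPM and the macrophage gene Adgre1 from 159 ± 18.2 to 420 ± 111 CPM. Their part in the Hk3 value was not tested.

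The enzymes that complete the pathway beside the 10 genes were not called. Gpi1, glucose-6-phosphate isomerase, differed by 0.11 ± 0.14, Tpi1, triosephosphate isomerase, by 0.20 ± 0.18 and Pgam1, phosphoglycerate mutase, by 0.11 ± 0.16 (edgeR adjusted p 0.586, 0.416 and 0.62). The phosphofructokinase genes Pfkl and Pfkm differed by 0.41 ± 0.18 and −0.22 ± 0.093 (adjusted p 0.106 and 0.103). For Pfkm the CPM ranges did not overlap (19.6 to 23.0 with IgG and 17.5 to 19.5 with anti-LIF). The call or sign of Pfkm changed in 5 of 21 alternatives. Aldoc and Eno2, known from brain, differed by −0.59 ± 0.29 and −0.30 ± 0.68 (adjusted p 0.152 and 0.762). Without KPCL-PCC_203_G, Aldoc passed (−0.80, adjusted p = 0.0337).

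Of 10 tested glucose transporter genes other than Slc2a1, 1 rose. Slc2a6, which encodes GLUT6, went from 20.4, 18.1, 23.1 and 20.9 CPM with IgG to 32.6, 39.8, 43.1 and 37.8 CPM with anti-LIF, 1.86-fold (0.89 ± 0.11, edgeR adjusted p = 0.0031), and was at −0.20 with myeloid scaling. Slc2a3 did not pass (−0.24 ± 0.35, adjusted p = 0.631). Among 16 genes of pyruvate and lactate handling, 1 rose and 1 fell. Slc16a7, which encodes the monocarboxylate transporter MCT2, was at 7.97, 6.26, 9.32 and 5.41 CPM with IgG and at 35.3, 21.1, 24.5 and 20.7 CPM with anti-LIF (1.81 ± 0.23, edgeR adjusted p = 0.00313). It kept its direction and passed under all 21 alternatives, both marker scalings included. Dlat, a subunit of pyruvate dehydrogenase, fell by 0.28 (SE 0.081, adjusted p = 0.0302), with 0.76 under epithelial scaling. The Dlat call was lost on leaving out any 1 tumour other than KPCL-PCC_203_G and KPCL-PCC_227_GA (adjusted p up to 0.0967), and with both KPCL-PCC_393_G and KPCL-PCC_310_GA left out (0.0769).

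In pathways that branch from glycolysis, few genes were called. Of 8 pentose phosphate genes, G6pdx, the entry enzyme, was the 1 that rose, from 108 ± 5.33 to 137 ± 8.19 CPM (0.35 ± 0.074, edgeR adjusted p = 0.00969; −0.78 with myeloid scaling). Of 15 genes of the hexosamine, glycogen and serine branches, Psph, of serine synthesis, was the 1 that fell, by 0.53 (SE 0.16, adjusted p = 0.0354; 0.45 with epithelial scaling). Of 6 gluconeogenic genes, Pcx, pyruvate carboxylase, was the 1 that fell, by 0.40 (SE 0.12, adjusted p = 0.0383; 0.62 with epithelial scaling). The Psph call was lost on leaving out any 1 tumour other than KPCL-PCC_227_GA and KPCL-PCC_391_GA (adjusted p up to 0.0902), and the Pcx call on leaving out any but KPCL-PCC_310_GA (up to 0.0932). With both KPCL-PCC_393_G and KPCL-PCC_310_GA left out, the adjusted p was 0.107 for Psph and 0.0705 for Pcx. Over all 21 alternatives, the call or sign changed in 8 for Psph and in 10 for Pcx. The G6pdx call was lost with library size alone (0.19, adjusted p = 0.056). Of the 4 genes that set the level of fructose 2,6-bisphosphate, Pfkfb4 was the 1 that rose, from 49.9 ± 8.92 to 73.1 ± 2.23 CPM (0.55 ± 0.12, adjusted p = 0.0115; −0.57 with myeloid scaling).

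Of 9 regulators, 2 rose and 1 fell. Hif1a, the oxygen-regulated transcription factor subunit, stood at 407, 404, 372 and 381 CPM with IgG and 876, 651, 487 and 495 CPM with anti-LIF. All anti-LIF tumours were higher (0.68 ± 0.19, edgeR adjusted p = 0.0238), but the call was lost without KPCL-PCC_343_G, KPCL-PCC_345_G or KPCL-PCC_393_G (adjusted p = 0.057, 0.0576 and 0.0578) and with both KPCL-PCC_393_G and KPCL-PCC_310_GA left out (0.0935), and the sign turned to −0.51 with myeloid scaling. Mlxipl, the glucose-responsive factor ChREBP, went from 14.0 ± 1.74 to 58.4 ± 32.8 CPM (2.06 ± 0.36, adjusted p = 0.00556) and passed under all 21 alternatives. Epas1, which encodes HIF-2 alpha, went from 45.8 ± 6.49 to 26.0 ± 3.65 CPM (−0.82 ± 0.14, adjusted p = 0.00485; 0.17 with epithelial scaling). Myc did not pass (−0.41 ± 0.22, adjusted p = 0.184).

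Genes known to be induced by low oxygen that are not glycolytic enzymes had a median of −0.55, and 1 of 19 rose and 4 fell. P4ha1, a collagen prolyl hydroxylase subunit, rose 2.11-fold (1.08 ± 0.25, edgeR adjusted p = 0.0131; −0.090 with myeloid scaling), while P4ha2, a second such subunit, fell 1.91-fold (−0.94 ± 0.22, adjusted p = 0.0134; 0.020 with epithelial scaling). Ddit4, an inhibitor of mTORC1, fell 2.24-fold (−1.16 ± 0.29, adjusted p = 0.0172; adjusted p = 0.0502 without KPCL-PCC_343_G and −0.22 with epithelial scaling). Bnip3l, a mitophagy receptor, fell 1.47-fold (−0.55 ± 0.12, adjusted p = 0.0108; 0.47 with epithelial scaling). The Bnip3l call was lost with both KPCL-PCC_393_G and KPCL-PCC_310_GA left out (adjusted p = 0.06). The fourth that fell, Lox, a collagen cross-linking enzyme named here after its value was seen, went from 36.3 ± 9.83 to 15.1 ± 7.99 CPM (−1.26 ± 0.37, adjusted p = 0.0314).

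**Figure D5:**
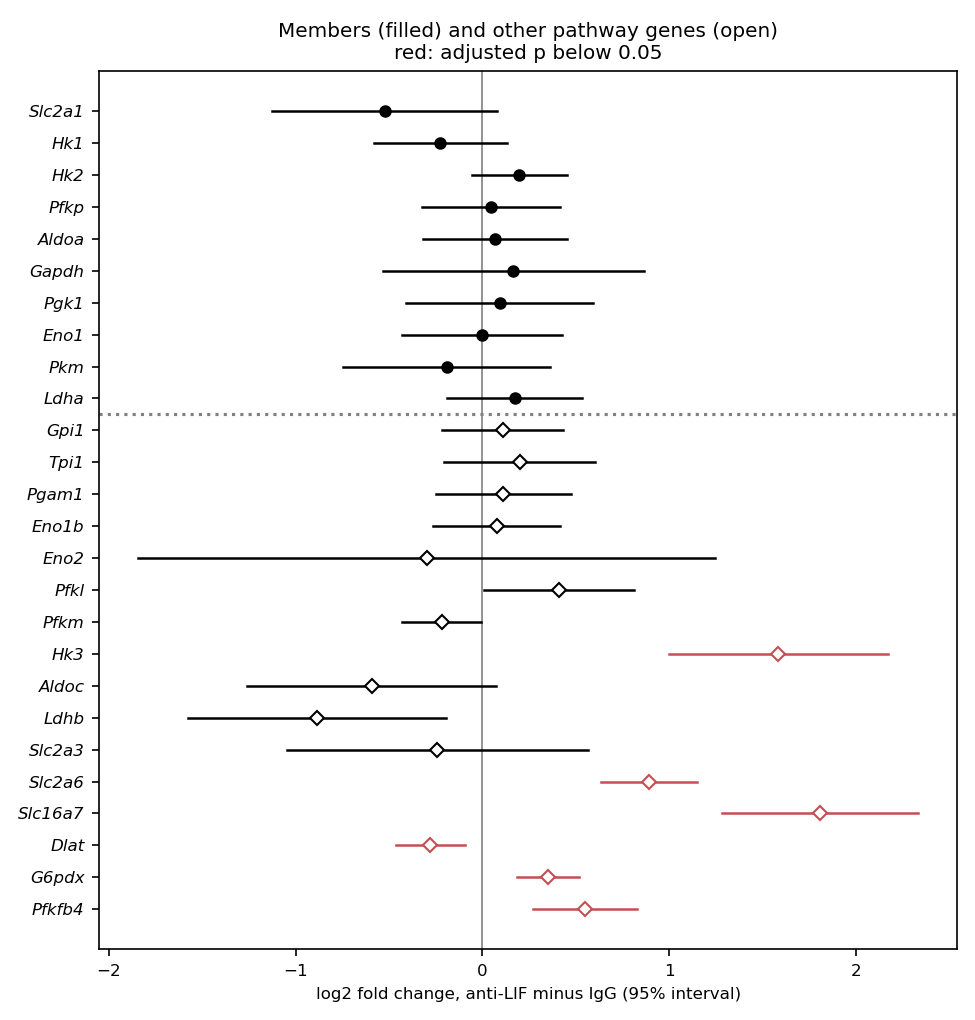
Log2 fold change, anti-LIF minus IgG (x axis), with its 95% interval for the 10 glycolysis genes (filled circles) and for other pathway genes named in the text (open diamonds); red marks an edgeR adjusted p below 0.05. All 10 intervals of the upper group include 0. In the lower group those of Hk3 (1.58), Slc2a6 (0.89), Slc16a7 (1.81), G6pdx, Pfkfb4 and Pfkl lie above 0. Those of Dlat, Ldhb and Pfkm lie below it, and Pfkl, Ldhb and Pfkm are not red.

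Windows of 250 bases upstream of the annotated start sites were read from RefSeq (GRCm38.p6) for the 10 genes, all of which matched by symbol, with 17 start sites. Each window was searched for ACGTG on both strands (CACGT where it lies on the other strand), the core of the element that hypoxia-inducible factors bind and part of the CACGTG box bound by Myc and ChREBP. It occurred in 7 of the 17 windows, in 6 of the 10 genes, beside 16.6% of 32851 such windows over all genes. Windows of neighbouring start sites overlap, and 2 windows of Aldoa hold the same match. More than 1 match was found in 3 of the 17 windows, 1 each of Hk2, Pgk1 and Ldha, against 6.81% of all windows. A CACGTG counts on both strands, so a single such box already gives more than 1 match. The match of Pkm lies at another start site than that of the counted transcript. A match is a string of letters and no measure of binding.

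Shown are those 3 windows and that of Slc2a1, the gene of uptake, 5′ to 3′ on the strand of the gene, with the matches in capitals. Their coordinates are chr4:119108495-119108744 for Slc2a1 (plus strand), chr6:82774455-82774704 for Hk2 (minus), chrX:106186850-106187099 for Pgk1 (plus) and chr7:46845554-46845803 for Ldha (plus). The match nearest to the start site began 36 bases before it in Slc2a1, 52 in Hk2, 131 in Pgk1 and 34 in Ldha. The Ldha window has 5 matches because CACGTG reads the same on both strands and counts on each, and it lies at another start site than that of the counted transcript, whose own window held none.
Slc2a1: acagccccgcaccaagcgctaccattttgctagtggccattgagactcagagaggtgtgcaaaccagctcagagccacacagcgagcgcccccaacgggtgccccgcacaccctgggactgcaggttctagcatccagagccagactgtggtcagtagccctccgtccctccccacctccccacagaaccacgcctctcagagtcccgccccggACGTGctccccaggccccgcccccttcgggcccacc
Hk2: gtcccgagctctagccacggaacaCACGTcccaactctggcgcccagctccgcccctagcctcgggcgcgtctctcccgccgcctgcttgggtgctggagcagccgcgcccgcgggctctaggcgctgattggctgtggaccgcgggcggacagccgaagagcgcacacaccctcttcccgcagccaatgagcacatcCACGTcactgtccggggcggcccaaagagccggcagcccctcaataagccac
Pgk1: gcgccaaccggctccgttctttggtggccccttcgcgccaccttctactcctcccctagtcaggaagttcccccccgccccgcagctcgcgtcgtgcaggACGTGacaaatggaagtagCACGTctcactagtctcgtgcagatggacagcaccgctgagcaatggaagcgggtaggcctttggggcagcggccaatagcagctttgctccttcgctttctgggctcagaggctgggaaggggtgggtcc
Ldha: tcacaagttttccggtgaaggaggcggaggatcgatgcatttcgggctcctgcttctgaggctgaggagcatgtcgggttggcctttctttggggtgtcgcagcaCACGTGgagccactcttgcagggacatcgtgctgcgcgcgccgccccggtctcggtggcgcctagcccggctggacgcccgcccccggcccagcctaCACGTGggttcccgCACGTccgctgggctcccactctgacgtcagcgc
Of these 4 genes, Slc2a1 and Hk2 had estimates of opposite sign (−0.52 and 0.20), and none was called.

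For each of the 10 genes, the tested genes with the most similar pattern over the 8 tumours were found by the root mean square difference of log2 CPM, each gene centred on its own mean. The nearest were Rps13 for Slc2a1 (0.13), St3gal5 for Hk1 (0.081), Sipa1l2 for Hk2 (0.069) and Ccnd3 for Pfkp (0.094). Aldoart1, an aldolase A retrogene, was nearest to Aldoa (0.069), followed by Gpi1 (0.078). Snora31 was nearest to Gapdh (0.18), Srgn to Pgk1 (0.087), Eno1b to Eno1 (0.11), Ankrd9 to Pkm (0.14) and P4hb to Ldha (0.051). Next after these, Slc2a1 had Myc (0.16) and Plpp1 (0.17), and Ldha had the glycolytic genes Tpi1 (0.072) and Pgam1 (0.087). Hk1 had Vps37b (0.093) and Tmem43 (0.096), Hk2 had D17H6S53E (0.071) and Tmem86b (0.074), and Pfkp had Mybl1 (0.10) and Utp18 (0.11). Gapdh had Rapgef4 (0.19) and Plk3 (0.20), Eno1 had Slc27a4 (0.11) and Sssca1 (0.12), and Pkm had Dapk2 (0.14) and Msh5 (0.15). Pgk1 had Aldoart1 (0.12) and Tpi1 (0.12), and the third for Aldoa was Srgn (0.095). The distance was largest for Gapdh, the gene with the fewest counts. The Eno1b and Aldoart1 rows may share reads with their neighbours.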

How the data were processed

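RNA from 8 tumours was measured by RNA-seq. Per the submitters' processing notes, FastQC 0.11.2, STAR 2.4.0k, HOMER and edgeR 3.6.8 were used, on mm10. Per the file headers, reads in exons were counted with HOMER and 1 transcript was kept per gene; 1 deposited table holds these raw counts and the authors' second table holds FPKM. The sources used here do not give the strand setting, the annotation version or the treatment of reads with several matches. There were 0 unused columns of values. Library totals ran from 18954525 to 24681702 reads; there are no molecular identifiers.

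Counts were tested with edgeR 4.0.16 in R 4.3.3 (filterByExpr defaults, TMM, quasi-likelihood test, Benjamini-Hochberg over 14711 genes, threshold 0.05). The same procedure was also tested on simulated data. There its recovery rate was 10.4% for 1.5-fold differences, 53.7% for 2-fold ones and 92.4% for 4-fold ones. It made 108 calls, and 4 were false. Differences near 1.5-fold were thus mostly missed in the simulation. The data gave 4731 calls, far more than the simulation, which makes the adjusted threshold less strict, so these rates do not carry over. A gene without a call may still differ by any amount within its interval. A 1.5-fold difference lay inside the intervals of Slc2a1, Gapdh, Pgk1 and Pkm. It lay outside those of Hk2, Pfkp, Aldoa, Eno1 and Ldha, and the Hk1 interval ended close to it. Log2 CPM used a prior count of 2. Alternatives were other scalings and filters, DESeq2 1.42.0, limma 3.58.1 (voom, and trend on log2 FPKM with pseudocounts 1 and 0.1) and leaving out libraries. Ratios were compared by exact permutation. No mouse number occurs in both arms, so none were paired. The labels name no batch. Some alleles of the genotype and 1 sequence are not reported here. The 10 genes and all lists were chosen with earlier results of these data known. Genes named are the 10, their close paralogs and partner steps, Hif1a, Myc, a few cell markers, the nearest genes by pattern, and in each list up to 4 past the threshold with the lowest p.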

Additional observations from a re-analysis of the deposited data

Results flagged for a closer look

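In the IgG arm, 1 tumour lay far from the other 3 in 2 genes. KPCL-PCC_393_G had 380.9 CPM of Slc2a1, where the others had 212.7 to 226.1, and the gap was 0.92 of the arm's range. The same tumour had 174.8 CPM of Hk1, where the others had 107.9 to 114.6, a gap of 0.899 of the range. Both gaps exceed Dixon's 95% critical value for 4 samples. In all, 46 groups of 4 were examined and 2 exceeded it, which chance alone does in about 1 of 20 groups. Both values come from 1 library, so they are not independent.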

How the results depend on the processing

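Of 210 alternative fits of the 10 genes, 20 passed the threshold: 19 with the scalings to marker lists and Slc2a1 without KPCL-PCC_310_GA. The sign turned in 34 of the 210. Where a sign turned or a count moved, the cause was not tested, except that leaving out libraries reduces their number and that scaling to a marker list shifts all genes together. No paired analysis was possible because the arms share no mouse number. Of the 10 genes, Gapdh had the fewest counts, at 27 to 73 per library.

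Scaled to the epithelial markers, 9 of the 10 genes, 75 other pathway genes and 11345 of all tested genes passed, and the log2 differences that changed sign were Slc2a1 0.42, Hk1 0.79, Eno1 1.03, Pkm 0.76, Pfkm 0.79, Slc2a3 0.68, Aldoc 0.35, Eno2 0.87, Ldhb 0.075, Myc 0.56, Dlat 0.76, Psph 0.45, Pcx 0.62, Bnip3l 0.47, P4ha2 0.020 and Epas1 0.17. Scaled to the myeloid markers, the counts were 10, 92 and 12557, and the differences that changed sign were Hk2 −0.94, Pfkp −1.04, Aldoa −1.06, Gapdh −0.97, Pgk1 −1.04, Ldha −0.95, Gpi1 −1.02, Pfkl −0.75, Tpi1 −0.94, Pgam1 −1.02, Eno1b −1.05, Hif1a −0.51, Slc2a6 −0.20, G6pdx −0.78, P4ha1 −0.090 and Pfkfb4 −0.57. With library size alone, 26 other pathway genes passed and the sign turned for Pfkp −0.10, Aldoa −0.087, Pgk1 −0.064, Gpi1 −0.048, Pgam1 −0.049 and Eno1b −0.087. With limma-trend on log2 FPKM, 27 (pseudocount 1) and 25 (0.1) other pathway genes passed. The sign turned, with pseudocount 1, for Pfkp −0.11, Aldoa −0.051, Pgk1 −0.0081, Gpi1 −0.0027, Pgam1 −0.0039 and Eno1b −0.045, and, with 0.1, for Pfkp −0.11, Aldoa −0.051, Pgk1 −0.0061, Gpi1 −0.0026, Pgam1 −0.0026 and Eno1b −0.045. Eno1 was at 0.0065 with DESeq2 size factors, 0.013 with DESeq2, 0.026 with limma-voom and 0.0010 without a filter. With both KPCL-PCC_393_G and KPCL-PCC_310_GA left out, a setting added after the data were seen, 2991 of all tested genes passed.

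Leaving out each tumour in turn gave 0 to 1 of the 10 genes, 10 to 20 other pathway genes and 2974 (without KPCL-PCC_343_G) to 4354 of all tested genes past the threshold. The sign turned within the range for Aldoa (−0.038 to 0.20), Pgk1 (−0.023 to 0.33), Eno1 (−0.12 to 0.17), Eno2 (−1.02 to 0.38), Eno1b (−0.019 to 0.16), Pkm (−0.37 to 0.0073), Slc2a3 (−0.45 to 0.044), Gapdh (−0.093 to 0.39), Pfkp (−0.13 to 0.14) and the Slc2a1/Slc2a3 ratio (−0.43 to 0.10). The other paralog ratios kept their direction.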

Other observations

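The spread of the 10 glycolysis genes between IgG tumours rested largely on 1 library. Their median coefficient of variation of CPM was 22.8% in the IgG arm, beside 13.5% over all tested genes, and 8 of the 10 lay above that median, all but Hk2 (1.13%) and Pfkp (8.56%). Without KPCL-PCC_393_G, a setting chosen after seeing the data, their median was 7.50%, beside 12.5% over all tested genes, and 3 of the 10 lay above it. Slc2a1 went from 30.8% to 3.23% on leaving that tumour out, Hk1 from 24.8% to 3.14% and Pgk1 from 31.5% to 7.67%, while Eno1 went from 26.6% to 32.7%. In the anti-LIF arm the median was 16.5%, beside 15.4% over all tested genes, and 13.7% beside 14.8% without KPCL-PCC_310_GA. There Gapdh (41.3%), Slc2a1 (33.8%) and Pkm (27.8%) were the most variable and Hk1 (8.20%) the least. Without KPCL-PCC_310_GA, Slc2a1 was at 19.6% and Gapdh at 34.1%. Whether the variability of these genes differs between the arms was not tested.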
